A study of Mus musculus with 5 samples.

Results

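The proteasome genes of mouse wound keratinocytes were compared between mice lacking Nrf2 in keratin 14-expressing cells and wild-type (WT) littermates. They are all genes named Psma, Psmb, Psmc, Psmd, Psme or Psmg with a number, together with Pomp. This rule goes by name and uses no measured value, but it was chosen with earlier results of these data known. Of 48 such genes in the annotation, 46 were among the 10664 genes of the authors' deposited table, and Psma8 and Psmb11 were not analysed here. Psmc3ip and Psme2b, whose names only begin in this way, were not counted as members.

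RNA was sequenced from keratinocytes sorted 5 days after wounding, by CD49f on the surface and no staining with a mix of blood lineage antibodies. The conditional knockout (cKO) group had 2 samples, numbered 2 and 3, of the genotype K14Cre-ER; Nrf2 flox/flox, and the WT group had 3 samples of the genotype K14Cre-ER; Nrf2 +/+. Both groups thus carried the same Cre, which is driven by the keratin 14 promoter, so that Nrf2 is spared in cells that do not express it. The treatment that activates the Cre, the age of the animals and whether each sample came from a separate animal are not given in the sources used here. All values come from the authors' own comparison of the genotypes, which lists for each gene the log2 fold change, the level averaged over the libraries as CPM (a library's share of reads scaled to a common total), and a p-value with its false discovery rate (FDR). Which of the libraries entered it is not stated there. No value per sample was analysed here, so no spread between samples can be shown for a gene, and the p-values may measure technical variation alone. Fold changes are given below as log2 of cKO relative to WT, so that a negative value is a lower level in cKO.

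The 26S proteasome is the protease that destroys proteins tagged with ubiquitin. Its 20S core is a barrel of outer alpha rings and inner beta rings, in which Psmb6, Psmb7 and Psmb5 supply the cutting sites called beta 1, beta 2 and beta 5. A 19S cap of ATPases and non-ATPase subunits binds ubiquitin chains, removes them, unfolds the substrate and feeds it into the core. Under interferon the catalytic subunits can be replaced by Psmb9, Psmb10 and Psmb8, giving the immunoproteasome, which favours peptides for MHC class I. NRF1, encoded by Nfe2l1, is a relative of NRF2 that is held at the endoplasmic reticulum and destroyed there, and that raises proteasome genes when the proteasome is inhibited. Both factors bind antioxidant response elements (ARE), and NRF2 activators have been reported to raise proteasome subunits in mouse tissue.

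The core letters of this element, TGACNNNGC on either strand, were looked for in the RefSeq promoter windows of the members (build GRCm38.p6), each from 250 bases before to 50 after a start site. They were found in 6 of the 39 members with a window, or 15.4%, and in 16.7% of the 8329 genes of the comparison that have a window. The 6 genes were Psmb5, Psmb6, Psmc6, Psmd12, Psme4 and Psmd9. Windows of both Psmb5 and Psmb6, which encode catalytic subunits, held the core near the start site, at positions -47 and -9. The part of 4 of these windows that lies upstream of the gene in GENCODE is given here, 5' to 3' on the strand of the gene, with the match in capitals, so that the letters can be read beside the measured fold changes. The match in Psme4 crosses the start site, and the window of Psmd9 lies inside the gene in GENCODE, so these are not shown.
Psmb5 (chr14:54618023-54618245, minus strand): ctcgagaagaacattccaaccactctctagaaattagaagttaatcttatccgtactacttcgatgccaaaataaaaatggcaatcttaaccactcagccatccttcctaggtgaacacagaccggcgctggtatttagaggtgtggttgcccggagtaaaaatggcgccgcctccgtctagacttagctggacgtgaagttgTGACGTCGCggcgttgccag
Psmb6 (chr11:70525107-70525356, plus strand): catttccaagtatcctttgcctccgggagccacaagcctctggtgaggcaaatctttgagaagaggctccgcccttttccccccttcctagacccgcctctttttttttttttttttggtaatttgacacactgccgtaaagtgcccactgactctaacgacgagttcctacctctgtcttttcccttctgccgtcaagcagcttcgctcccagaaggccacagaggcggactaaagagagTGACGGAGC
Psmc6 (chr14:45329574-45329787, plus strand): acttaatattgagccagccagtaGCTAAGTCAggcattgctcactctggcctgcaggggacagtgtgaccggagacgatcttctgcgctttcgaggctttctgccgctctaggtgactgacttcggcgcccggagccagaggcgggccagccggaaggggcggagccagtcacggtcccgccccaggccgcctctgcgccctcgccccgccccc
Psmd12 (chr11:107479278-107479483, plus strand): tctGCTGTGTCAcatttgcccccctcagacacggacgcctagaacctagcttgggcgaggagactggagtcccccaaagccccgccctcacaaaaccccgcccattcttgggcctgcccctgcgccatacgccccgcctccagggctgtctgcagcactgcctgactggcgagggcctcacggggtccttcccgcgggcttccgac
In Psmc6 and Psmd12 the capitals read as the reverse complement of the core, and begin at positions -227 and -247. A match is a description of the letters and does not show that either factor binds there.

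No proteasome gene passed the threshold between the genotypes in the authors' deposited table: 0 of 46 had an FDR under 0.05, where 2.61% of all genes did (2.15% lower and 0.459% higher in cKO). The unadjusted p-value was under 0.05 for 0 of 46 members and for 8.36% of all genes. These shares of all genes are not matched to the levels of the members, and calls were rarer at higher levels. By FDR 129 of 2340 other genes were called at 3 to 10 CPM, where 6 members lie. At 30 to 100 CPM, with 18 members, 11 of 2578 were called, and at 100 to 300 CPM, with 17 members, 7 of 1388. Benjamini-Hochberg FDR was 1 for 44 of the members, and the others were the assembly chaperone Psmg2 (FDR 0.796) and the immunoproteasome subunit Psmb10 (FDR 0.987). By value 15 members were lower and 31 higher in cKO, with a median of 0.07 and a range of -0.86 (Psmg1) to 1.13 (Psmg2) in the authors' deposited table. Psmg2 was the 1 member with an absolute log2 fold change over 1, a size that 13% of the 8878 other genes in the members' level range exceeded. That share is not matched to the levels of the members within the range. The SD of the other genes was 1.31 at 3 to 10 CPM, where 6 members lie, and 0.42 at 100 to 300 CPM, where 17 lie. The median over all genes was 0.00, and over genes at 16 CPM or more it was 0.07, which is the same size as that of the members. When the values were centred on that second median, 22 members were lower and 24 higher, with a median of 0.00.

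**Figure D1:**
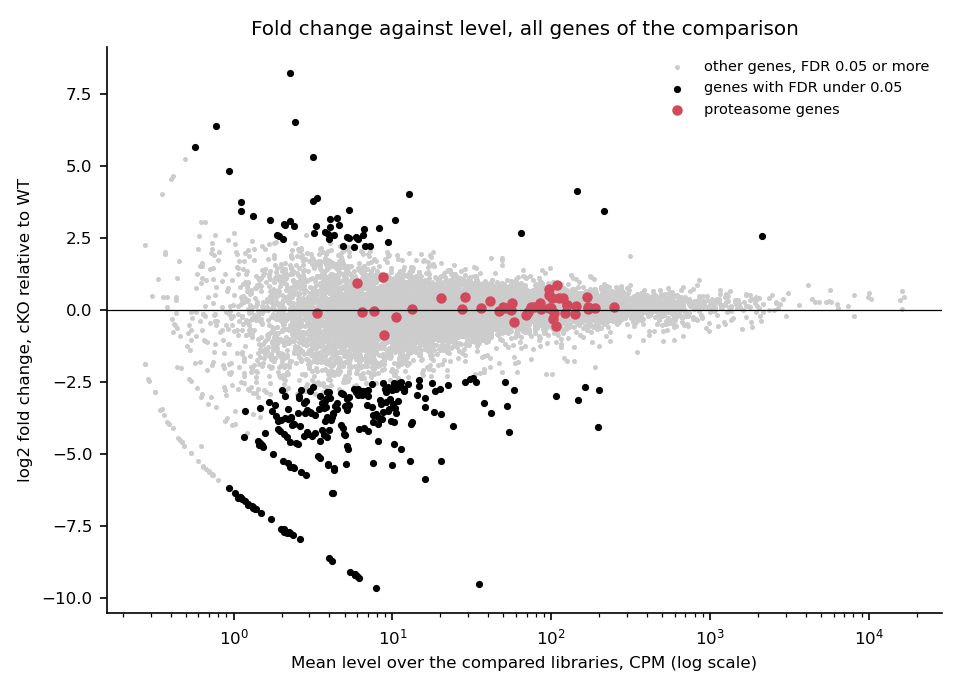
The log2 fold change of cKO relative to WT (vertical axis) against the mean level in CPM (horizontal axis, log scale) for all 10664 genes of the authors' comparison, with called genes in black and the 46 proteasome genes in red. The proteasome genes lie between -0.86 and 1.13, and none is among the called genes.

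How small a change the comparison could call was read from the genes around them. No gene of the authors' deposited table was called with a change smaller than 2.20 on the log2 scale. Among the 1388 other genes at 100 to 300 CPM, where 17 members lie, 7 were called, and the smallest called fall was 2.67. Among the 2578 other genes at 30 to 100 CPM, where 18 members lie, 11 were called, and the smallest called fall was 2.36. Each deposited p-value implies a standard error of the fold change, and for genes of the level and direction of each member it was 0.62 to 0.81. With it, the implied 95% interval included 0 for all 46 members, a fall by 1 or more for 32 and a rise by 1 or more for 43. A fall of a single proteasome gene by 1 on the log2 scale was therefore not detectable here, and a missed threshold does not show that levels were equal in the genotypes. These intervals rest on p-values that follow fold and level almost alone: at 30 to 300 CPM the implied standard error was 0.68 to 0.74 over 302 falls, and 0.62 to 0.65 over 510 rises.

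**Figure D2:**
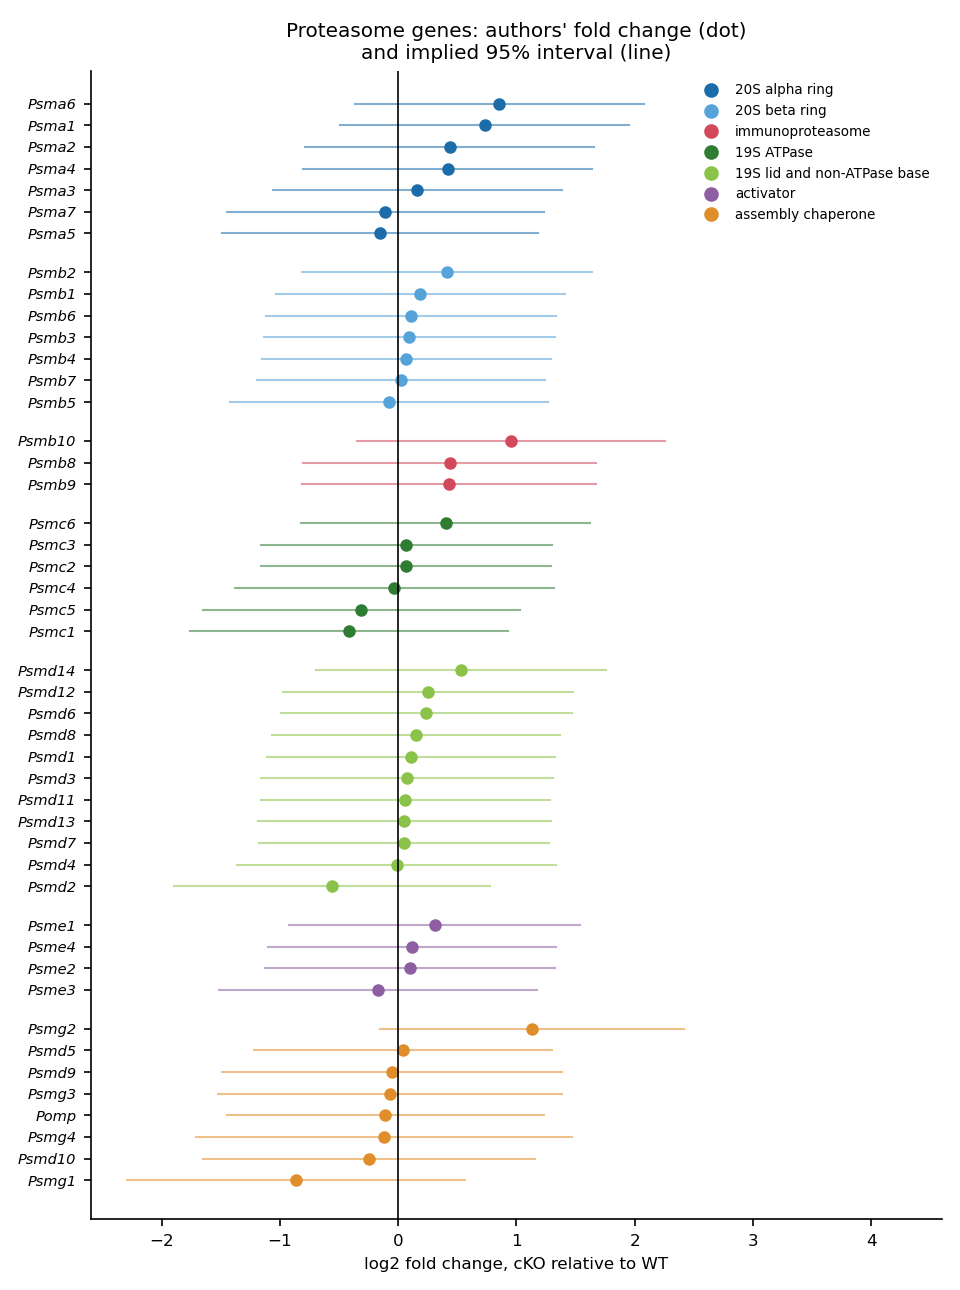
The log2 fold change of cKO relative to WT for each proteasome gene (dots) with the 95% interval implied by the deposited p-values of genes of like level and direction (lines), by group. All 46 lines cross 0, and the points farthest from it are Psmg2 at 1.13, Psmb10 at 0.95 and Psmg1 at -0.86.

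The outer alpha rings, which gate entry to the core, had values of -0.15 to 0.86, with 2 genes lower and 5 higher. Their median of 0.42 compares with 0.10 over the 895 other genes in the same level range, and 0 of 7 were called where 0.447% of those genes were. Psma6 (ENSMUSG00000021024, chromosome 12, 55384222 to 55418454, plus strand, mm10) had the largest value, 0.86 (p = 0.173, FDR 1 in the authors' deposited table). At a mean level of 108 CPM this corresponds to 76.8 CPM in WT and 139 CPM in cKO, if both genotypes weigh alike in the mean. Psma1 followed at 0.73 (p = 0.242), and Psma2 and Psma4 had 0.43 and 0.42 in the authors' deposited table. Psma3 lay at 0.16, while Psma7 and Psma5 had -0.11 and -0.15 in the authors' deposited table. The 7 alpha genes were thus spread over this range with no called gene at either end.

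The beta rings, which hold the cutting sites, lay closer together, from -0.08 to 0.41, with an SD between genes of 0.15 against 0.39 in the alpha rings. Over the other genes in the same level ranges the SD was 0.44 for the beta and 0.42 for the alpha rings. The difference between the rings was not tested. Of the 7 genes 1 was lower and 6 higher, with a median of 0.09 beside 0.07 over genes in the same level range. Psmb5, the chymotrypsin-like site and the main target of proteasome inhibitors such as bortezomib, had -0.08 at 71.2 CPM in the authors' deposited table (p = 0.928). Psmb6, the caspase-like site, had 0.11, and Psmb7, the trypsin-like site, had 0.03 (p = 0.849 and 0.945 in the authors' deposited table). Among the subunits without a cutting site, Psmb2 had 0.41 (p = 0.502), Psmb1 0.19, Psmb3 0.09 and Psmb4 0.07 in the authors' deposited table. Over the 6 members with the core the median was 0.11, with 2 lower and 4 higher, and over the 33 without it 0.07, with 13 lower and 20 higher.

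The ATPases of the 19S base, which unfold substrates, had 3 values on each side of 0 and a median of 0.02. Psmc1 had the lowest value, -0.42, Psmc5 had -0.31 and Psmc6 0.40 in the authors' deposited table (p = 0.544, 0.655 and 0.515). The others, Psmc2, Psmc3 and Psmc4, lay between -0.03 and 0.07 in the authors' deposited table. With values centred on genes at 16 CPM or more the median of the ATPases was -0.05, with 5 lower and 1 higher, so even the sign of this group depends on the scaling.

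Among the other genes of the 19S cap that the rule by name takes, 2 of 11 were lower and 9 higher, with a median of 0.08. Cap genes with other names, such as Adrm1, were counted with the associated factors below. Psmd2, the largest base scaffold together with Psmd1, had the lowest value, -0.56 at 107 CPM (p = 0.412 in the authors' deposited table). Psmd14, the deubiquitinase of the lid that removes ubiquitin chains, had the highest, 0.53 (p = 0.391 in the authors' deposited table). The lid subunit Psmd12, whose window holds an ARE core, had 0.25 (p = 0.673 in the authors' deposited table). The ubiquitin receptor Psmd4 had -0.01, and Psmd1, Psmd3, Psmd6, Psmd7, Psmd8, Psmd11 and Psmd13 lay between 0.05 and 0.24. The scaffolds Psmd1 and Psmd2, partners in the same base, thus had values on either side of 0, at 0.11 and -0.56.

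The immunoproteasome genes were higher by value in all 3 cases and passed no threshold. Psmb8 (ENSMUSG00000024338) had 0.44, Psmb9 (ENSMUSG00000096727) 0.43 and Psmb10 (ENSMUSG00000031897) 0.95 in the authors' deposited table (p = 0.491, 0.496 and 0.147). Their median of 0.44 stands beside -0.09 over the 3925 other genes in the same level range, of which 2.17% were called. Set against the constitutive subunit that each replaces, the value was 0.51 higher for Psmb8 than for Psmb5, 0.32 higher for Psmb9 than for Psmb6, and 0.93 higher for Psmb10 than for Psmb7. Each of these differences is smaller than the distance from the value of a member to either end of its implied 95% interval, and none was tested. The coding sequences of these pairs were 60.9% to 63.6% identical, so these are not near-identical copies.

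Levels were low for the immune subunits. Per kb of transcript, the mean level over both genotypes was 17.7 CPM for Psmb8 against 79.3 for Psmb5, 15.0 for Psmb9 against 97.6 for Psmb6, and 4.58 for Psmb10 against 146 for Psmb7. The level of the immune form was thus 22.3%, 15.3% and 3.13% of that of its constitutive counterpart on this scale. CPM was divided here by the length of a principal GENCODE transcript. The title of the authors' table speaks of TPM, and if its CPM were already scaled by length this step would have been applied a second time. Across 10455 genes level and length had a Spearman correlation of 0.29, given as a description.

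**Figure D3:**
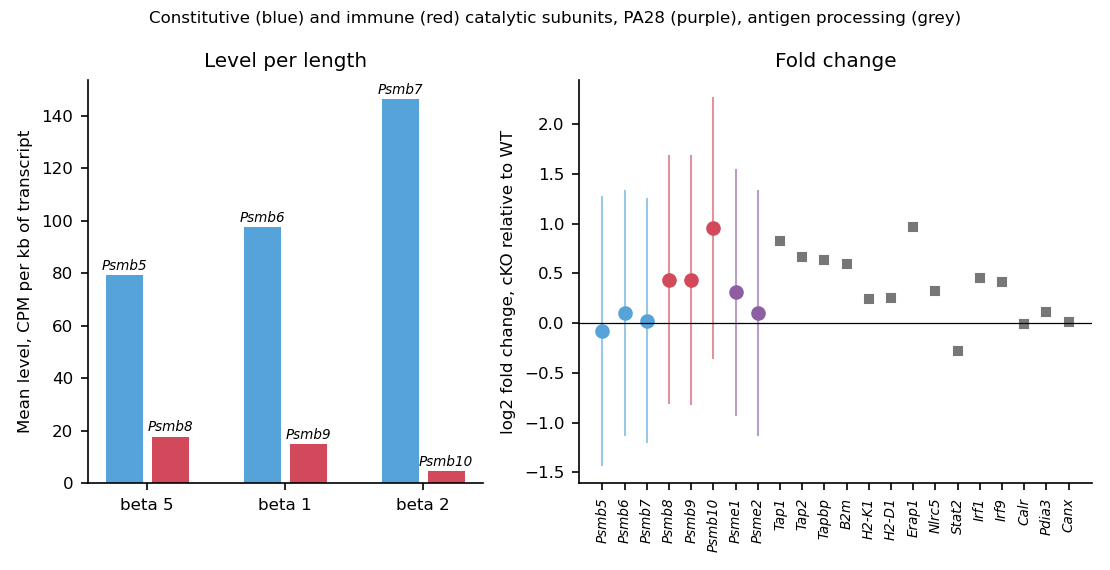
Left, the mean level in CPM per kb of transcript for each constitutive catalytic subunit (blue) and its immune counterpart (red). Right, the log2 fold change of cKO relative to WT for these genes and the activator genes Psme1 and Psme2 (purple) with implied 95% intervals, and for genes of MHC class I antigen processing and interferon control (grey squares). All 3 immune subunits lie above 0, between 0.43 and 0.95, with lines that cross 0.

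Psmb9, Tap1, Psmb8 and Tap2 lie side by side in the MHC on chromosome 17, from 34181987 to 34216321 (mm10). Tap1 and Tap2, which carry peptides into the endoplasmic reticulum, had 0.83 and 0.67 in the authors' deposited table. All 4 neighbours were therefore higher by value. Of 14 genes of antigen processing and interferon control 2 were lower and 12 higher, with a median of 0.37 and 0 called. Of the other genes in their level range 43.8% were lower, with a median of 0.06, and 0.512% were called. Erap1, which trims peptides, had 0.97 (p = 0.124), B2m 0.60, Tapbp 0.64 and the interferon factor Irf1 0.45 in the authors' deposited table. Stat2, which relays interferon signals, had -0.28 in the authors' deposited table. Smaller values in the same list were those of H2-D1 at 0.25, H2-K1 at 0.24, Pdia3 at 0.11, Canx at 0.01 and Calr at -0.01. Interferon motifs were searched on both strands too. The core of the interferon-stimulated response element, GAAA and GAAA with NN between them, was found in 5 of 39 members with a window, or 12.8%, beside 3.69% of the genes of the comparison. These were Psmb3, Psmd4, Psmd9, Psme1 and Psmg4, with values from -0.12 (Psmg4) to 0.31 (Psme1), and none is an immune catalytic subunit. The core of the gamma-activated site, TTCNNNGAA, was found in 3 members, or 7.69%, beside 8.16%. In the windows of the immune subunits the only match was TTCNNNGAA in Psmb8. Like that of Psmd9, this window of Psmb8 lies inside the gene in GENCODE, so the match is not upstream of the annotated gene.

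Leukocytes are rich in immunoproteasome, and their markers are given here for that reason. Of 10 leukocyte markers 3 were among the genes of the authors' deposited table, at 1.87 to 47.2 CPM. Ptprc, Lyz2, Adgre1, Csf1r, C1qa, Cd3e and Cd79a were not among them, so these markers give no value here. S100a8, made by neutrophils and by wound keratinocytes, had -1.83 in the authors' deposited table. Itgam, which encodes the CD11b that the sort selected against, had -0.61 there, and Cd68 had 1.46. Of these 3 markers 0 were called, where 3.38% of the other genes in their level range were. The part of leukocytes in the values of Psmb8, Psmb9 and Psmb10 was not tested.

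The activators bind the ends of the core in place of the 19S cap. Psme1 and Psme2, the subunits of the interferon-responsive activator PA28, are neighbours on chromosome 14 and had 0.31 and 0.10 in the authors' deposited table (p = 0.617 and 0.858). Psme2 is uncertain, because its coding sequence is 99.3% identical to that of Psme2b, which had 0.11 at 4.20 CPM, and reads may be split between them. Psme3, the nuclear form of this activator, had -0.17, and Psme4, which encodes PA200, had 0.12 (p = 0.818 and 0.830 in the authors' deposited table). Psme4 had the highest CPM of all members, 248 CPM, over a transcript of 6491 bases, or 38.2 CPM per kb.

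The assembly chaperones, which help build the core and the base, had the largest SD of the member groups, 0.55, and the lowest median level. That SD lies below the 0.88 of the 8040 other genes in their level range, so it is no wider a spread than theirs. Of 8 genes 6 were lower and 2 higher, with a median of -0.09 beside -0.02 over genes in their level range. Psmg1 and Psmg2 encode partners of 1 heterodimer that helps form the alpha ring, and their values pointed in opposite directions. Psmg1 had -0.86 at 8.89 CPM (p = 0.232 in the authors' deposited table), which implies 11.5 CPM in WT and 6.30 CPM in cKO. Psmg2 had 1.13 at 8.76 CPM (p = 0.0886 in the authors' deposited table), which implies 5.49 CPM in WT and 12.0 CPM in cKO, again if both genotypes weigh alike. The implied 95% intervals included 0 for both, from -2.29 to 0.56 for Psmg1 and from -0.15 to 2.42 for Psmg2. Psmg3 and Psmg4, the other heterodimer, had -0.07 and -0.12 at 6.42 and 3.33 CPM. Pomp, the maturation factor of the beta ring, had -0.11 at 122 CPM, and the base chaperones Psmd5, Psmd9 and Psmd10 had 0.04, -0.05 and -0.25 in the authors' deposited table. Per kb, the chaperones had a median of 7.32 CPM, beside 99.9 for the constitutive core and 41.7 for the 19S cap, and Pomp stood apart from the other chaperones at 77.4.

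The factors that control these genes were in the same comparison. Nfe2l2, the targeted gene, had -1.99 at 189 CPM and missed the threshold (FDR 0.126 in the authors' deposited table). Which part of the gene is deleted is not given in those sources, so this value need not measure the deletion. Nfe2l1 had 0.36 at 274 CPM (p = 0.560), and the relative Nfe2l3 had 0.82 (p = 0.193 in the authors' deposited table). Of the enzymes that activate NRF1, the protease gene Ddi2 had -0.01, the deglycosylase gene Ngly1 0.40 and the extraction ATPase gene Vcp -0.31. Keap1, which marks NRF2 for destruction, had -0.79 in the authors' deposited table (p = 0.273). Of 14 analysed genes of this list 9 were lower and 5 higher. The list had 0 called, where 0.569% of the other genes in its level range were.

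Genes of proteins that work with the proteasome had an SD of 0.31 between genes, beside 0.36 for the members. Of 17 analysed associated factors 5 were lower and 12 higher, with a median of 0.08 and 0 called. Among the other genes in their level range 0.496% were called. The ubiquitin receptor gene Adrm1 had -0.24, the proteasome inhibitor gene Psmf1 0.26, and Zfand2a, an arsenite- and heat-inducible factor, the lowest value of -0.80 (p = 0.239 in the authors' deposited table). Ipo9, a nuclear import receptor, had the highest, 0.49. Among genes of ubiquitin supply, the stress-inducible polyubiquitin gene Ubb had -0.46, and Rps27a, which encodes ubiquitin fused to a ribosomal protein, had 0.70 in the authors' deposited table. The activating enzyme genes Uba6 and Uba1 had 0.68 and 0.10. Of these 4 genes of ubiquitin supply 0 were called, where 0.404% of the other genes in their level range were. Among autophagy genes, the cargo receptor gene and NRF2 target Sqstm1 had -0.02 at 259 CPM, 6 of 9 were lower, and values ran from -0.42 (Map1lc3a) to 0.33 (Tax1bp1) in the authors' deposited table.

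Other multi-subunit complexes were set beside the proteasome as a scale. The COP9 signalosome, whose subunits are related to the 19S lid, had 3 of 9 genes lower and a median of 0.13. It had 0 called, where 1.84% of the other genes in its level range were. Its values ran from -0.56 (Cops7a) to 1.44 (Cops7b, p = 0.0343 and FDR 0.477 at 3.87 CPM) in the authors' deposited table. The CCT chaperonin had 4 of 8 lower and a median of -0.07, with Cct4 at 0.53 and Tcp1 at -0.29. It had 0 called, where 0.339% of the other genes in its level range were. Of 14 NRF2 target genes 9 were lower and 5 higher, and 1, Gpx2, was called, where 2.49% of the other genes in their level range were. Gpx2, a glutathione peroxidase gene, had -4.69 at 1.44 CPM (FDR 0.0114), Slc7a11, the cystine transporter gene, -2.93 at 2.09 CPM (FDR 0.0545) and Nqo1 1.33 at 2.09 CPM in the authors' deposited table. These 3 lie below the lowest level of a proteasome gene, 3.33 CPM, a split that was chosen after the data were seen. The other 11 targets ran from -2.18 (Gsr) to 0.54 (Srxn1) with an SD of 0.84 and 0 called, beside an SD of 0.36 over the proteasome genes. Gsr and the ferritin gene Ftl1, at -1.67 and 121 CPM (p = 0.0171, FDR 0.304 in the authors' deposited table), lay apart from the rest. The next lowest was Txnrd1 at -0.41, so the larger SD of these targets need not hold for the list as a whole. No test of the difference between these lists was made.

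**Figure D4:**
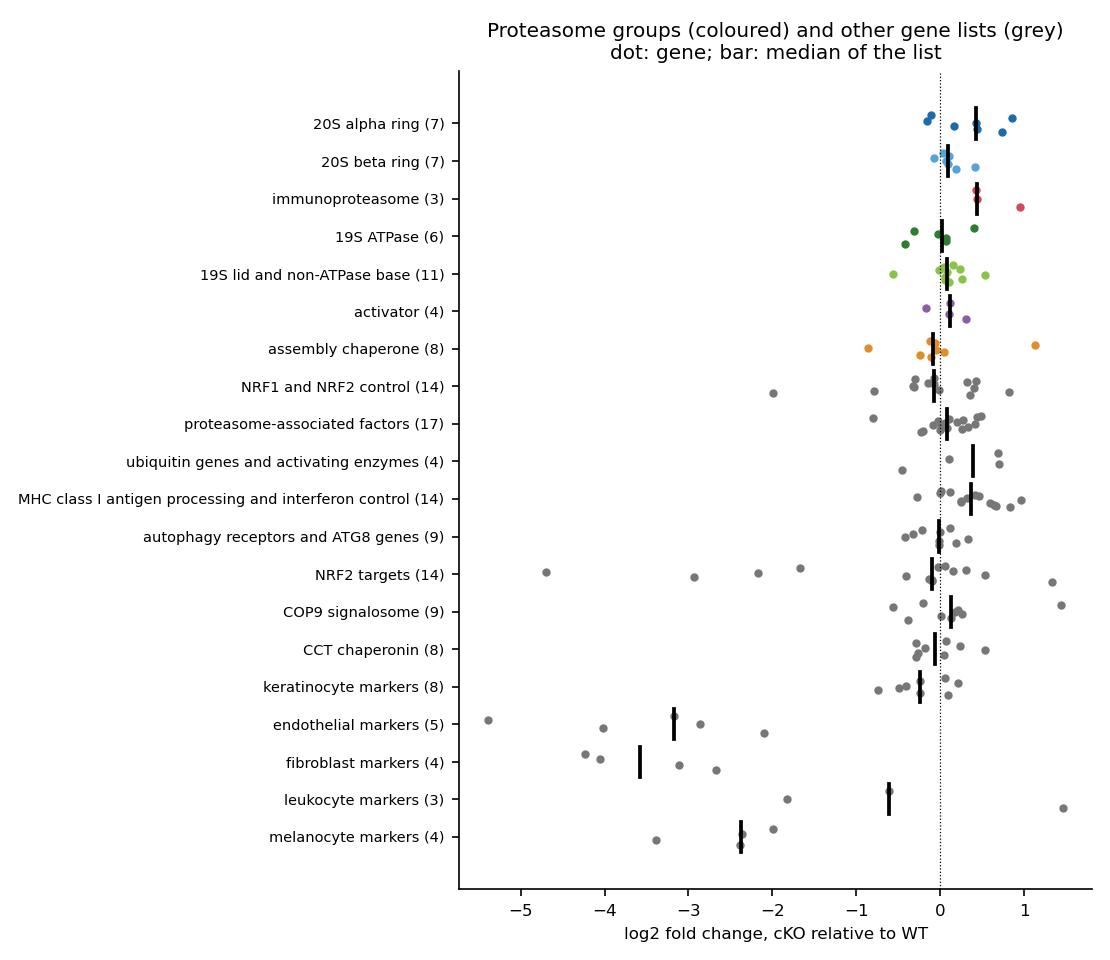
The log2 fold change of cKO relative to WT for the genes of each proteasome group (coloured dots) and of the other lists (grey dots), with the median of each as a bar and the number of analysed genes in brackets. Medians of the proteasome groups lie between -0.09 and 0.44, while those of endothelial, fibroblast and melanocyte markers lie between -3.58 and -2.37.

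The sorted cells carried the keratinocyte markers, with Cdh1 at 1533 CPM and Krt5 at 1198 CPM. Of these markers 8 of 8 were analysed and 0 called, where 0.318% of the other genes in their level range were. By value 5 of the 8 were lower and 3 higher in cKO, with a median of -0.24. Of those other genes 37.7% were lower, with a median of 0.10. Markers of other cells were lower in cKO in the authors' deposited table: 4 of 5 analysed endothelial markers were called, with Cdh5 at -4.01 and 24.0 CPM, and 4 of 4 analysed fibroblast markers, with Col3a1 at -4.05 and 196 CPM. Of 4 analysed melanocyte markers 3 were called, with Tyrp1 at -2.36. Of the other genes in the level ranges of the endothelial, fibroblast and melanocyte lists, 1.74%, 0.179% and 3.93% were called. The cKO and WT samples thus differed in RNA of other cell types, whose part in the proteasome values was not tested, and in such bulk samples fewer cells of a type and less RNA per cell cannot be told apart. They also differed in sex-linked genes: Ddx3y, on the Y chromosome, had -9.51 (FDR 1.71e-11) and the X-linked RNA gene Xist 2.58 (FDR 0.00557) in the authors' deposited table. The sex of the animals is not stated in those sources, and the part of sex in the proteasome values was not tested.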

How the data were processed

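Per the submitters' processing notes, reads were handled with Trimmomatic 0.35, STAR 2.6.0c and RSEM on the mouse build mm10. The values are the authors' comparison of cKO with WT: for each of 10664 genes the log2 fold change, the mean level in log2 CPM, the p-value and its FDR, per the file headers. The tool behind them and the read totals are not stated in the sources used here, so the depth is unknown. Base 2 was taken, since 2 to the power of the deposited levels summed to 1.00436e+06. Notes beside 2 negative entries of a second deposited sheet, which holds the 278 genes with an FDR under 0.05, gave the direction, and signs were turned round to cKO relative to WT. The deposited FDR equalled a Benjamini-Hochberg adjustment of the deposited p-values within 7.17e-15.

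With no values per sample, no model was fitted, and the authors' FDR under 0.05 was the test. An implied standard error was computed for each member as the median of absolute log2 fold change divided by the normal quantile of the deposited p-value. It was taken over the 32 to 357 other genes of the same direction, within 1.25-fold in level and with a fold change of 0.5 to 3. Group medians were set beside all other genes between the lowest and highest level of the group. Symbols came from GENCODE vM21, which matched 10655 genes, and transcript lengths and mm10 positions from the same release. Coding sequences were aligned with Biopython 1.88, and promoter windows came from RefSeq (GRCm38.p6). A planned comparison of subunit proteins was not run, and coding sequences were used in its place. The adjustments were tested on simulated data with planted changes. The implied error was run on simulated p-values made from a known error, which its formula returns by construction. That run checks the code only and says nothing on how well the intervals hold for the deposited p-values. Scripts ran in Python 3.11.15 with SciPy 1.17.1, pandas 2.3.3, NumPy 2.4.6 and, for plots, matplotlib 3.10.9.

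The members and gene lists were chosen with earlier results of these data known. By the rule for named genes all members are named, with Nfe2l2, Nfe2l1, Keap1, Tap1, Psmf1, Adrm1, Sqstm1, the called genes and the 2 genes with the smallest p of each other list, and the 2 marker genes with the highest level. Other genes of those lists are named for their known roles and were chosen after their values were seen, and not every gene the rule takes is named. Results for some genes of these lists are not reported here.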

Additional observations from a re-analysis of the deposited data

How the results depend on the processing

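No proteasome gene was called under any of the alternatives run: 0 of 46 at a threshold of 0.01, with the Benjamini-Yekutieli adjustment and with an empirical null, 0 of 45 with a level filter of 5 CPM and 0 of 38 with one of 16 CPM. The smallest adjusted p of a member ranged from 0.307 (Psmg2, empirical null) to 1, and the stricter settings could only lose calls. Over all genes the 278 calls became 152 at a threshold of 0.01, 104 and 20 with the level filters of 5 and 16 CPM, 116 with the Benjamini-Yekutieli adjustment and 593 with the empirical null, which divides z by 0.804. The count of members lower by value, 15, was 9 of 38 without the assembly chaperones and Pomp, because 6 of the 8 genes left out were lower, and 22 of 46 when centred on genes at 16 CPM or more. It was 10 to 16 under the other alternatives, and the median stayed between 0.00 and 0.10. Counting Psme2b and Psmc3ip was an alternative chosen after the data were seen. The ARE core with an A after it was found in 2 member windows in place of 6, because it asks for 1 more base. No paired analysis was possible because values of single samples were not analysed here, and for the same reason leaving out each replicate was not run.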
